A study of Sus scrofa with 9 samples.

Results

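The genes described here are the 5 G1 cyclins CCND1, CCND2, CCND3, CCNE1 and CCNE2 and the 5 inhibitors of cyclin-dependent kinases CDKN1A, CDKN1B, CDKN1C, CDKN2B and CDKN2C. They were chosen by symbol, 10 of the 19535 gene rows of the count table, and all 10 passed the filter on low counts and were tested. In the porcine valvular interstitial cells (PVICs) studied, bFGF added to osteogenic medium went with more CCND1, CCNE1, CCNE2, CDKN2B and CDKN2C mRNA and with less CCND3, CDKN1A, CDKN1B and CDKN1C mRNA. In OIM on its own, 2 of the 10 passed the test against control, CCND1 and CDKN2B, and both were higher. CCND1 no longer passed when OIM replicate 2 was left out.

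PVICs are the fibroblast-like cells that maintain the aortic valve, here cultured for a few passages from the valves of pigs aged 4 to 5 months. The study asked whether pushing such cells toward calcium deposition, and adding bFGF, an inhibitor of that deposition, changes alternative polyadenylation. This is the choice of where an mRNA ends. It also compared transcript levels between the treatments, which are the subject here. The control cells (NC) were kept in DMEM. The OIM cells were kept in an osteogenic medium with 50 µg/mL ascorbic acid, 2 mmol/L phosphate and insulin. The bFGF cells received the same OIM with 50 ng/mL basic fibroblast growth factor. Every group has 3 libraries, from cells treated for 3 days according to the labels, while the study's methods give a shorter time before RNA extraction. The sources used here do not say whether replicates came from separate pigs or cultures, so the p-values measure only the spread between these libraries.

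In textbook outline, a growth factor raises D-type cyclins, which bind CDK4 and CDK6 and start to phosphorylate the retinoblastoma protein. E2F factors are then released and drive CCNE1 and CCNE2, whose cyclin E binds CDK2 and carries the cell from G1 into S phase. The Cip/Kip inhibitors p21 (CDKN1A), p27 (CDKN1B) and p57 (CDKN1C) block cyclin-CDK2 complexes, and the INK4 inhibitors p15 (CDKN2B) and p18 (CDKN2C) bind CDK4 and CDK6 themselves. Much of the control of p27 and cyclin E acts on the protein, which RNA counts do not measure.

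Levels below are CPM, the counts of a gene scaled to the size of its library, after TMM normalization, and differences are log2 fold changes from edgeR's quasi-likelihood fit of all 9 libraries. A gene is said to have risen or fallen where its Benjamini-Hochberg adjusted p over all 13662 genes tested was at most 0.05 and its log2 fold change at least 0.5 in size. Library totals ran from 57075793 to 67371523 counts in the control and OIM groups and from 46773376 to 48270827 in the bFGF group. The lowest count of any member was 140, for CCNE2 in control replicate 1. In bulk RNA, fewer cells that express a gene and less of its RNA per cell cannot be told apart.

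By this rule of edgeR 2 members rose and 0 fell in OIM against control, where 2.35% of all genes tested were called, 1.49% higher and 0.864% lower. DESeq2 gave the same member counts. With 1 library left out at a time, edgeR called 1 to 3 members higher and 0 lower. At an unadjusted p under 0.05 and with no fold limit, 5 members were higher and 1, CDKN1A, was lower, where 14.19% of all genes were higher and 11.97% lower. In bFGF against OIM 5 rose and 4 fell, where 36.2% of genes were called, 17.7% higher and 18.4% lower. Against control, the bFGF libraries also gave 5 higher and 4 lower members, with 39.0% of all genes called, 18.9% higher and 20.0% lower. These comparisons share libraries, so they are not separate evidence. The median log2 fold change of the 10 members was 0.20 in OIM against control, 0.38 in bFGF against OIM and 0.46 in bFGF against control, and over all genes it was -0.0019, -0.0029 and -0.016. The values of the bFGF and OIM libraries did not overlap for any of the 10 members, which was also so for 72.1% of all genes tested, and the bFGF and control libraries did not overlap for any of the 10 either, as for 73.7% of all genes. OIM and control did not overlap for 6 of the 10, against 28.8% of all genes.

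**Figure D1:**
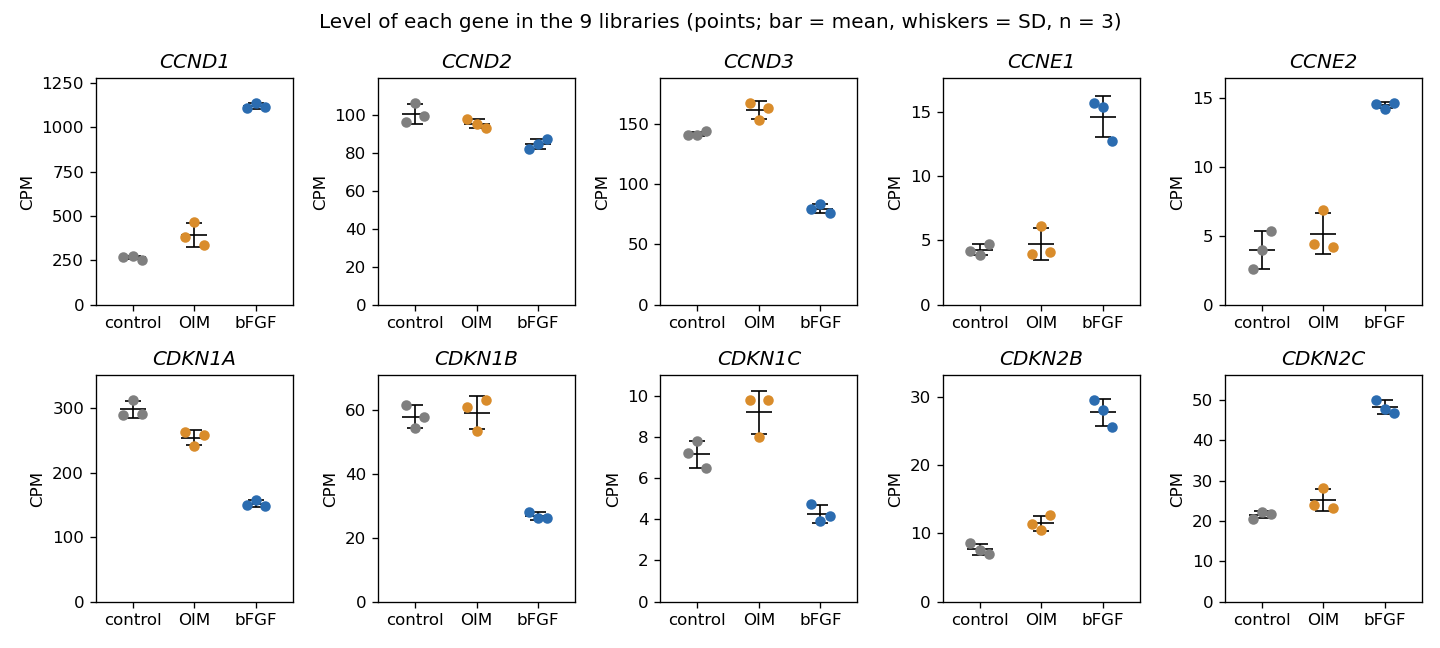
TMM-scaled CPM of each of the 10 genes in the 9 libraries, on linear axes from 0 with a scale of its own for each gene. Points are libraries, the bar is the mean of a group and the whiskers its SD (n = 3). CCND1 climbs from 254 to 276 CPM in control to at least 1110.4 CPM with bFGF, while CCND2 stays between 82.1 and 106.5 CPM in all 9 libraries.

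CCND1 encodes cyclin D1, the D-type cyclin best known as a growth factor response gene, and lies on chromosome 2 of Sscrofa11.1 from 3621242 to 3633380 on the minus strand. Its level was 268, 276 and 254 CPM in the 3 control libraries, 380, 469 and 336 in OIM and 1110.4, 1140.3 and 1114 with bFGF. The groups followed each other without overlap, and OIM replicates lay farthest from each other. CCND1 rose in OIM against control by 0.57 on the log2 scale (SE 0.074, edgeR adjusted p = 2.17e-05) and again in bFGF against OIM by 1.51 (SE 0.075, adjusted p = 5.26e-13), a 2.84-fold difference. OIM replicate 2 had the highest CCND1 of its group, and without that library the OIM difference was 0.43 with an adjusted p of 1.80e-09, which is under the fold limit. Against control the bFGF cells held 4.22-fold more CCND1 mRNA.

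CCND2, on chromosome 5 from 66092483 to 66114575 on the minus strand, encodes cyclin D2 and moved little. Control libraries gave 96.1, 106.5 and 99.3 CPM, OIM libraries 97.95, 95.2 and 93.2, and bFGF libraries 82.1, 84.6 and 87.5. Control and OIM overlapped, and the bFGF libraries were the lowest. The log2 fold change was -0.077 in OIM against control (95% interval -0.17 to 0.016) and -0.17 in bFGF against OIM (95% interval -0.26 to -0.078), so neither reached the fold limit. When counts were scaled by library totals alone, which moves the median of all genes to 0.219 in bFGF against OIM, the CCND2 value was 0.050.

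CCND3 encodes cyclin D3 and lies on chromosome 7 from 37087336 to 37182462 on the minus strand. It measured 141, 141 and 144 CPM in control, 168, 154 and 164 in OIM, and 79.5, 83.9 and 76.0 with bFGF. All bFGF libraries lay below every other library. CCND3 fell by 1.02 in bFGF against OIM (SE 0.044, edgeR adjusted p = 6.05e-14), and its OIM value of 0.18 against control was below the fold limit (adjusted p = 0.00606). Of its exon bases, 21.0% are shared with TAF8 on the opposite strand, and the strand setting of the counting is not given in the sources used here. TAF8 was at 19.3 to 21.5 CPM in the control and OIM libraries together and at 15.0 to 17.5 with bFGF.

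The E-type cyclins were both low and both rose with bFGF. CCNE1, on chromosome 6 from 39919541 to 39933224, encodes cyclin E1 and gave 4.20, 3.88 and 4.74 CPM in control, 3.91, 6.14 and 4.10 in OIM, and 15.8, 15.4 and 12.8 with bFGF. CCNE2, on chromosome 4 from 41802090 to 41821870, encodes cyclin E2 and gave 2.57, 3.98 and 5.36 CPM in control, 4.41, 6.85 and 4.15 in OIM, and 14.5, 14.2 and 14.7 with bFGF. For both genes the control and OIM libraries were mixed and the bFGF libraries were apart. CCNE1 rose by 1.63 in bFGF against OIM (SE 0.15, edgeR adjusted p = 5.24e-09) and had the largest increase of the 10 members, 3.09-fold, in this comparison, which is within its standard error of the CCND1 and CCNE2 increases. CCNE2 rose by 1.49 (SE 0.19, adjusted p = 7.73e-07).

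In OIM against control neither E-type cyclin passed the test. CCNE1 differed by 0.15 (95% interval -0.17 to 0.47, edgeR adjusted p = 0.594) and by -0.092 without OIM replicate 2. CCNE2 differed by 0.37 (95% interval -0.046 to 0.79, adjusted p = 0.252), and leaving out 1 library at a time moved it in both directions. It was 0.65 without control replicate 3 (adjusted p = 0.0497), 0.15 without control replicate 1 (adjusted p = 0.707) and 0.10 without OIM replicate 2 (adjusted p = 0.780). CCNE2 shares 26.8% of its exon bases with INTS8 on the opposite strand. INTS8, a subunit of the Integrator complex, was at 22.8 to 26.5 CPM in the control and OIM libraries and at 34.4 to 36.3 with bFGF, a rise of 0.59 on the log2 scale against OIM (edgeR adjusted p = 2.50e-08). Its part in the CCNE2 counts was not tested.

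CDKN1A, on chromosome 7 from 32354776 to 32363771, encodes p21, a p53 target that halts the cell cycle. It measured 290.2, 313 and 291 CPM in control, 262, 241 and 259 in OIM, and 149.7, 158 and 148 with bFGF. The 3 groups did not overlap. It fell by 0.74 in bFGF against OIM (SE 0.043, edgeR adjusted p = 4.67e-12) and by 0.97 against control. OIM against control was -0.23 (adjusted p = 0.000807), which is under the fold limit.

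CDKN1B, on chromosome 5 from 59731224 to 59735831 on the minus strand, encodes p27, an inhibitor that is abundant in resting cells. Control libraries had 61.65, 54.4 and 57.7 CPM, OIM libraries 60.8, 53.5 and 63.3, and bFGF libraries 28.2, 26.1 and 26.2. Control and OIM were intermixed, with a log2 difference of 0.031 (95% interval -0.098 to 0.16), and every bFGF library was lower. CDKN1B fell by 1.14 in bFGF against OIM (SE 0.065, edgeR adjusted p = 4.06e-12), the largest decrease of the members by a margin smaller than its standard error.

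CDKN1C, on chromosome 2 from 2019391 to 2022092 on the minus strand, encodes p57, best known as an imprinted gene of development. It gave 7.21, 7.79 and 6.48 CPM in control, 9.81, 7.997 and 9.82 in OIM, and 4.755, 3.90 and 4.14 with bFGF. CDKN1C fell by 1.11 in bFGF against OIM (SE 0.13, edgeR adjusted p = 1.47e-07). The OIM libraries were above the control libraries, by 0.36 on the log2 scale, which is under the fold limit. The adjusted p was 0.0508, and over the alternatives it ran from 0.0107 without OIM replicate 2 to 0.198 without control replicate 3, with 0.0385 from DESeq2.

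The INK4 inhibitors CDKN2B and CDKN2C rose in bFGF against OIM, where the 3 Cip/Kip inhibitors fell. CDKN2B encodes p15, known as a TGF-beta target, and gave 8.51, 7.57 and 6.91 CPM in control, 11.3, 10.45 and 12.7 in OIM, and 29.6, 28.01 and 25.55 with bFGF. It rose by 0.58 in OIM against control (SE 0.097, edgeR adjusted p = 0.000339) and by 1.27 in bFGF against OIM (SE 0.092, adjusted p = 1.78e-10). The gene is annotated on chromosome 1 from 200666250 to 200770880, with 3 mRNA starts up to 95078 bases apart, and the counts do not separate these transcripts.

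CDKN2C, on chromosome 6 from 161160290 to 161166681 on the minus strand, encodes p18. It gave 20.55, 22.2 and 21.8 CPM in control, 23.85, 28.2 and 23.2 in OIM, and 50.1, 47.7 and 46.75 with bFGF. CDKN2C rose by 0.94 in bFGF against OIM (SE 0.069, edgeR adjusted p = 2.52e-10). Its OIM value of 0.22 against control had an adjusted p of 0.0432 but was under the fold limit, and without OIM replicate 2 it was 0.13 with an adjusted p of 0.235.

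**Figure D2:**
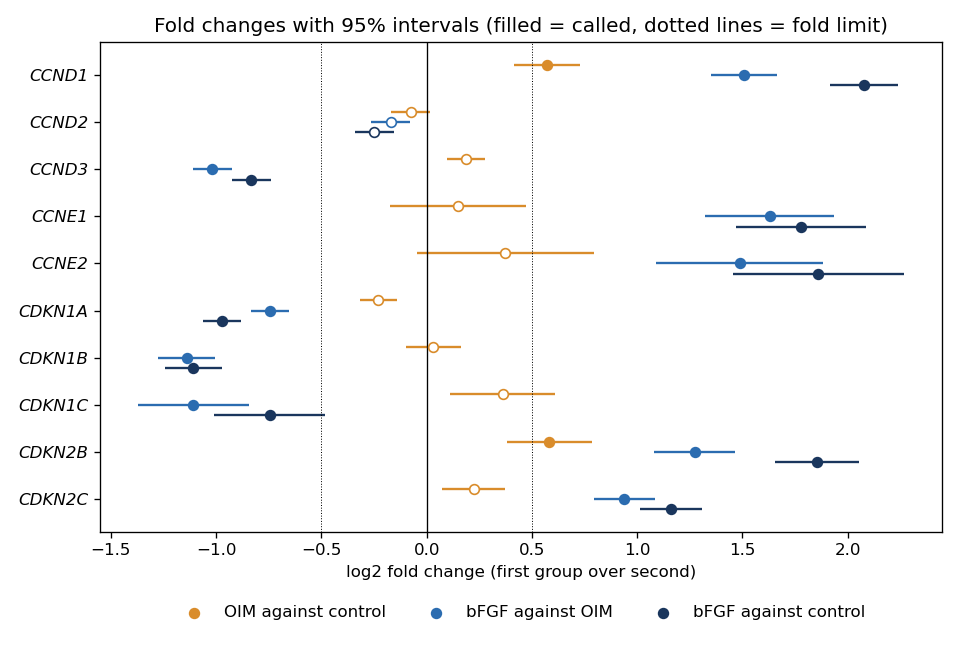
Log2 fold change of each gene with its 95% confidence interval in the 3 comparisons, from edgeR's quasi-likelihood fit, with dotted lines at the fold limit of 0.5 and filled points for genes called. In bFGF against OIM, 5 genes lie above the limit and 4 below it, with CCND2 at -0.17 inside.

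Across genes, levels were compared as CPM per kilobase of annotated exon. CDKN1A was the most abundant member in control at 140 CPM per kb, at the 97.4 percentile of the genes tested, followed by CCND2 at 82.4, CCND1 at 62.0, CCND3 at 34.4 and CDKN1B at 29.6. With bFGF the order was led by CCND1 at 262 CPM per kb, the 98.9 percentile, and CDKN1A followed at 71.2. CCNE1, CCNE2 and CDKN2B were lowest in control, at 1.54, 0.923 and 0.850 CPM per kb, and in OIM, at 1.70, 1.19 and 1.27. With bFGF the lowest was CDKN1C at 2.255 CPM per kb, below CDKN2B at 3.07, CCNE2 at 3.37 and CCNE1 at 5.27. The annotated CCND2 transcript is only 1222 bases long, so its level per kb depends on that model.

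The make-up of the summed D-type cyclins differed between the groups. CCND1 made up 34.7% ± 0.942 (SD, n = 3) of the D-type CPM per kb in control, 43.8% ± 4.396 in OIM and 74.7% ± 0.372 with bFGF. CCND2 went from 46.1% ± 1.07 to 37.4% ± 2.41 and 19.8% ± 0.584, and CCND3 from 19.2% ± 0.768 to 18.7% ± 1.98 and 5.50% ± 0.233. Of these, CCND3 shares overlapped between control and OIM. The order of CCND1 and CCND2 in control rests on the short CCND2 model, since without division by length CCND1 held 52.2% and CCND2 19.8% there. No test was run on these shares. Within the Cip/Kip group CDKN1A led in every library. CDKN1A held 80.7% ± 1.39, 77.3% ± 0.897 and 81.7% ± 1.09 in control, OIM and bFGF, CDKN1B 17.1% ± 1.45, 19.6% ± 0.727 and 15.7% ± 0.797, and CDKN1C 2.18% ± 0.143, 3.15% ± 0.196 and 2.59% ± 0.289.

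**Figure D3:**
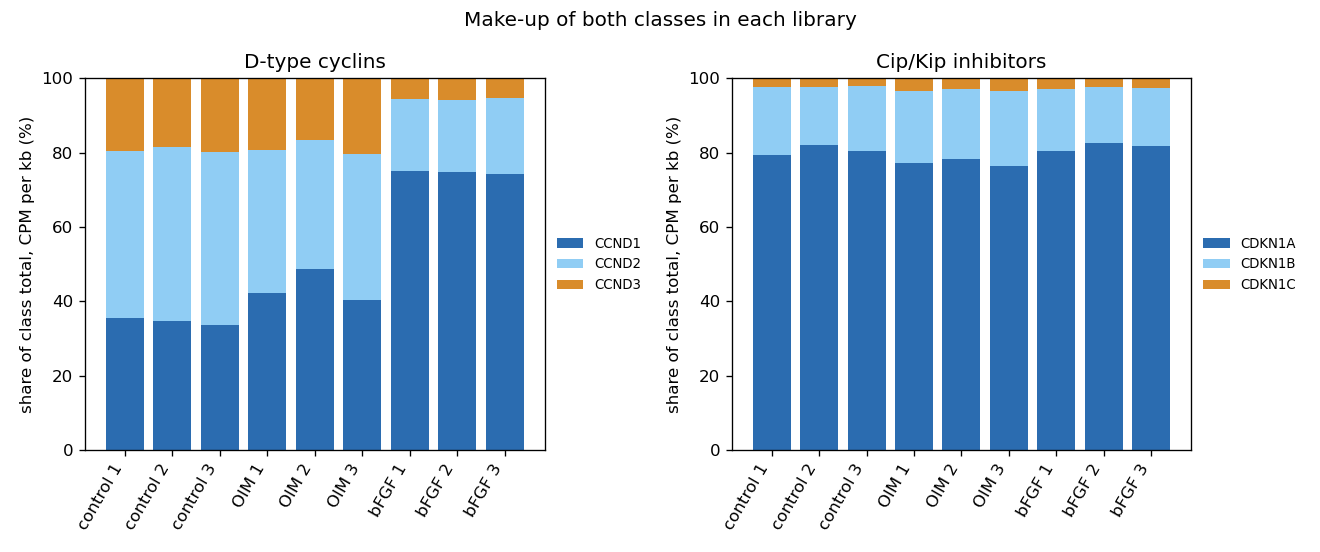
Share of each gene in the summed CPM per kb of the D-type cyclins and of the Cip/Kip inhibitors, as percent, in 1 stacked bar per library. CCND1 takes 74.3% to 75.0% of the D-type sum in the bFGF libraries and 33.8% to 35.7% in control, and CDKN1A holds most of the Cip/Kip sum in all 9 libraries.

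The D-type sum was 179 CPM per kb in control, 209 in OIM and 351 with bFGF, while the Cip/Kip sum was 173, 154 and 87.1. The ratio of D-type to Cip/Kip sums was 1.02, 1.04 and 1.04 in the control libraries, 1.31, 1.55 and 1.22 in OIM, and 3.97, 3.98 and 4.12 with bFGF. Its size depends on the gene lengths, and without division by length its mean was 1.401 in control, 2.03 in OIM and 7.03 with bFGF. The groups did not overlap in this ratio, which is a description of RNA and carries no test. The E-type sum was 2.46, 2.89 and 8.64 CPM per kb and the INK4 sum 8.17, 9.81 and 19.5.

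OIM replicate 2 stood apart from the other OIM libraries. It had the highest value of its group for 4 members, CCND1, CCNE1, CCNE2 and CDKN2C, and the lowest for 5. OIM replicate 1 was highest for 3 and lowest for 1, and OIM replicate 3 highest for 3 and lowest for 4. The summed E2F target genes of OIM replicate 2 were at 662 CPM, against 506 and 491 in OIM replicates 1 and 3. They were at 472 to 489 CPM in control and 1655 to 1724 with bFGF. The summed smooth muscle markers of OIM replicate 2 were at 781 CPM, against 1145 and 1139 in the other OIM libraries. The part of these differences in the OIM results was not tested, and the values without this library stand beside each gene above where they changed a call or a direction.

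**Figure D4:**
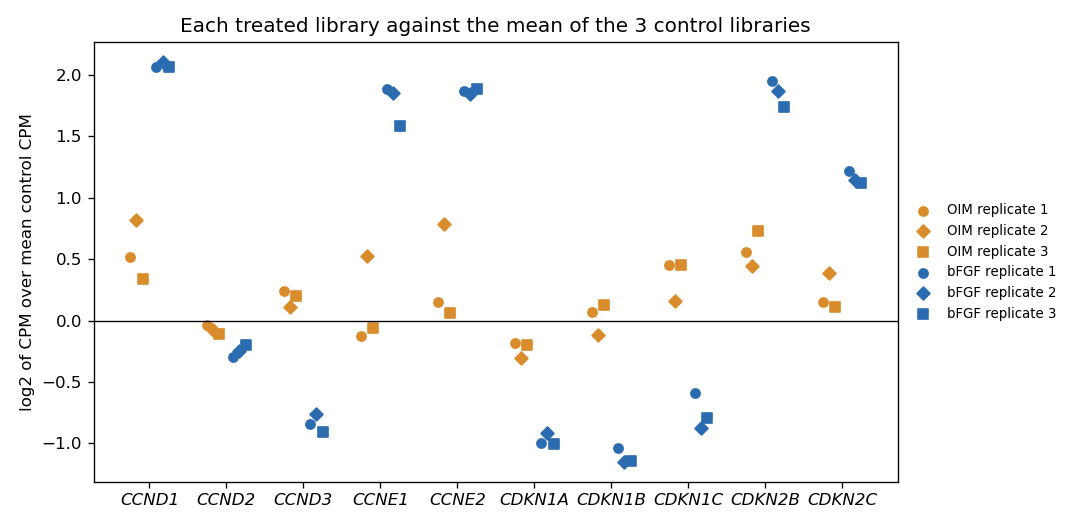
Log2 of the CPM of each gene in each OIM and bFGF library over the mean of the 3 control libraries, with 1 marker shape per replicate number. In OIM replicate 2, CCND1 sits 0.82 above control, against 0.52 and 0.34 in the other OIM libraries.

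The genes that work beside the members were taken from fixed lists, whose counts stand against 17.7% of all genes called higher and 18.4% called lower in bFGF against OIM. Of the partner kinases, 2 of 5 tested rose in bFGF against OIM, CDK2 by 1.28 and CDK4 by 0.54, and 0 fell. CDK2 is the partner of cyclin E and CDK4 of cyclin D. Of the pocket proteins, which hold E2F factors in check, RBL1 (p107) rose by 1.44, while RB1 and RBL2 gave 0.0029 and -0.37. Of the E2F and DP factors, 7 of 10 rose and 0 fell with a median of 1.11, led by E2F8 at 2.14, E2F1 at 1.95 and E2F7 at 1.61. All 14 E2F target genes of S phase that were tested rose, with a median of 1.77, and MCM3, TK1 and CDT1 rose most, by 2.25, 2.13 and 2.09.

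Among the other cyclins and CDK inhibitors, 4 of 7 tested rose and 1 fell. The mitotic and S-phase cyclins CCNA2, CCNB1 and CCNB2 rose by 1.94, 1.89 and 1.72, and CCNG2, a cyclin linked to arrest, fell by 0.93. CDKN2D, the INK4 gene of this list that was tested, gave 0.073. The list for the turnover of p27 and cyclin E had a median of 0.040, close to that of all genes, and 3 of 11 rose, against 17.7% of all genes. These were CKS2, SKP2 and CKS1B, at 1.51, 1.13 and 1.03. SKP2 and CKS1B are known to mark p27 protein for degradation. Of the activators of CDKs, CDC25C and CDC25B rose by 1.86 and 1.45 among 4 tested, and MYC gave 0.43.

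Genes known to act in the control of the inhibitors fell in part. Of the FOXO list, FOXO4, FOXO3 and FOXO1, which are known to activate CDKN1B transcription, fell by 1.76, 1.36 and 1.02 in bFGF against OIM, and FOXM1, a proliferation factor, rose by 1.74. Of the p53 pathway genes, 5 of 16 fell and 1 rose with a median of -0.13, where 18.4% of all genes fell. SESN1, PHLDA3 and BBC3 fell by 1.86, 0.93 and 0.83, PLK2 rose by 0.77, and MDM2, a p53 target like CDKN1A, gave 0.23. Of the TGF-beta targets listed beside CDKN2B, 4 of 5 fell and 0 rose, with SKIL and SMAD7 at -0.69 and -0.57, whereas CDKN2B rose.

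Among the 10 pathway lists, edgeR called genes in OIM against control in the E2F lists alone. Of the E2F and DP factors 2 of 10 rose, with E2F5 at 0.55, and of the E2F target genes 2 of 14 rose, with CDT1 at 0.59, where 1.49% of all genes were called higher. The medians of these lists were 0.23 and 0.24, against -0.0019 over all genes. At an unadjusted p under 0.05 with no fold limit, 6 of 10 and 9 of 14 were higher and 0 lower, where 14.19% of all genes were higher and 11.97% lower. DESeq2 called 3 of 10 and 1 of 14 higher. Without OIM replicate 2, edgeR called 0 of 10 and 0 of 14 of these, and CDKN2B was the single member called. In the other 8 lists, with 55 genes tested, edgeR and DESeq2 called 0 genes in that comparison, and 11 were higher and 7 lower at the unadjusted p. The medians of the 10 lists ran from -0.051 to 0.24. In bFGF against control, where 18.9% of all genes were called higher and 20.0% lower, 14 of 14 E2F targets and 7 of 10 E2F and DP factors rose and 0 fell. Of the other cyclins and inhibitors 4 of 7 rose and 1 fell, of the FOXO list 1 of 4 rose and 3 fell, of the p53 pathway genes 1 of 16 rose and 4 fell, and of the TGF-beta targets 0 of 5 rose and 4 fell. Of the remaining lists, 2 of 5 partner kinases, 3 of 11 turnover genes, 3 of 4 activators and 1 of 3 pocket proteins rose, and 1 pocket protein fell.

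**Figure D5:**
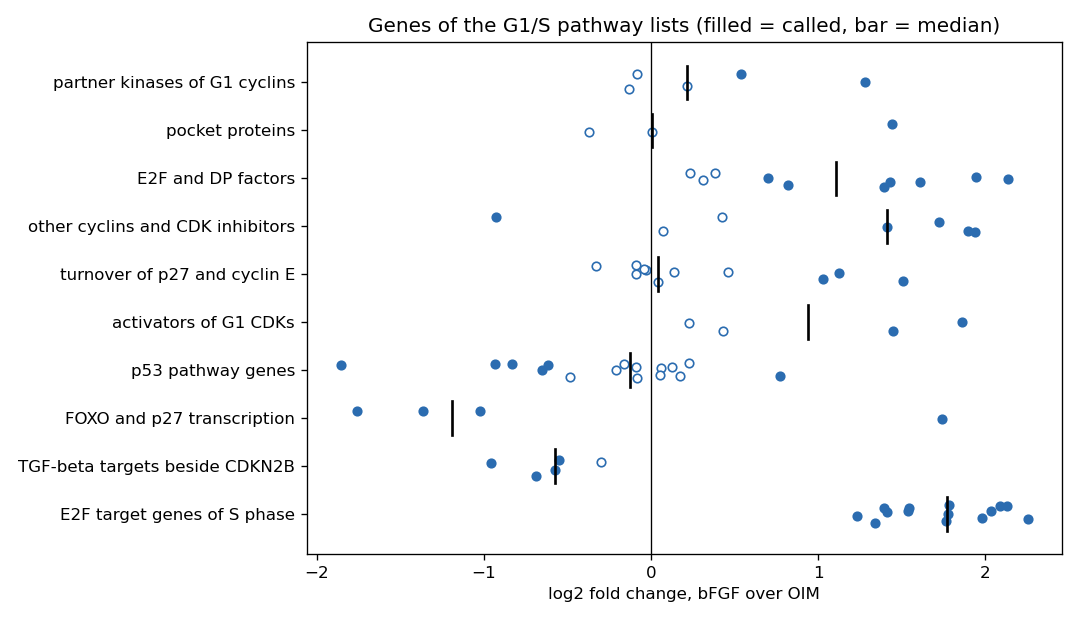
Log2 fold change in bFGF against OIM of each tested gene of the 10 pathway lists, one point per gene, filled where called, with the median of each list as a bar. Their heights within a list carry no value. The E2F target genes of S phase all lie above 1, from 1.23 to 2.25, and the FOXO list is split between 3 genes below -1 and FOXM1 at 1.74.

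Markers of the labelled cell type were high. Summed interstitial and fibroblast markers were at 64814 to 70223 CPM in control, 61396 to 64297 in OIM and 37484 to 37838 with bFGF, where VIM was called higher and COL1A1, COL1A2, COL3A1 and DCN lower than in OIM. Smooth muscle markers summed to 698 to 713, 781 to 1145 and 141 to 155 CPM, of which 3 of 6 rose in OIM against control and all 6 fell in bFGF against OIM. Endothelial markers summed to 72.6 to 74.4, 86.8 to 87.9 and 167 to 177 CPM, of which ERG carried 51.5, 66.8 and 137 on average, and 6 of 8 were called higher with bFGF than in OIM. Those called were ERG, PECAM1, CDH5, KDR, TEK and CLDN5, and VWF and TIE1 were not called. PECAM1 averaged 12.8, 11.8 and 20.7 CPM in control, OIM and bFGF, and VWF at most 0.479 CPM in any group. Leukocyte markers summed to 8.48 to 16.3 CPM over all 9 libraries with CD3E at 0 in each, and CD14 fell by 0.81 in bFGF against OIM. Osteoblast markers summed to 41.1 to 50.9 CPM, most of it RUNX2, which gave -0.12 in bFGF against OIM and was not called. BGLAP, at a low mean of 0.544 CPM in OIM and 1.15 with bFGF, rose by 1.06. The study's qPCR, by contrast, gave lower BGLAP and RUNX2 with bFGF than in OIM. The part of these marker shifts in the members' values was not tested.

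The genes most like CCNE1, the member with the largest increase in bFGF against OIM, were sought over the 9 libraries by the root mean square difference of centred log2 CPM. HMGB2, ESCO2, KIF18A, KIF11 and SHCBP1 were nearest, at 0.0894, 0.0959, 0.102, 0.114 and 0.116, against a median of 0.862 over all genes. For CDKN1B, the member with the largest decrease there, TPM4, MGST3, CYBRD1, FERMT2 and FAM214A were nearest, at 0.0386, 0.0493, 0.0596, 0.0639 and 0.0700, against a median of 0.583. Likeness here rests on 3 groups of libraries and is a description.

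Because E2F and FOXO genes also differed between bFGF and OIM, the starts of the members' RefSeq transcripts in Sscrofa11.1 were searched for short motifs. Windows ran from 250 bases before to 50 after each annotated mRNA start, on both strands. The E2F letters TTTCCCGC, TTTCGCGC, TTTGCCGC and TTTGGCGC were in 0 of the 10 members and in 4.75% of the 19525 genes searched. The CRE letters TGACGTCA (0 of 10, 2.77% of genes) and the AP-1 letters TGACTCA and TGAGTCA (0 of 10, 5.63%) were not found either. The FOXO letters GTAAACA were in CCND3 and CCNE2 and in 4.39% of genes, and CCAAT was in CCND3, CCNE2 and CDKN1C and in 44.6%. A gene was counted if any of its windows held a match. CCND3 and CCNE2 have 7 and 5 annotated mRNA starts, against 1 to 3 in the other members, so more windows were searched. No match says only that these letters are not in these windows.

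The FOXO matches are shown because the 2 members that hold them moved in opposite directions with bFGF. Each is printed 5′ to 3′ on the strand of its gene with the match in capitals, and in CCNE2 the capitals are the reverse complement of the letters searched.
CCND3, chr7:37181331-37181360, minus strand: cggcgccgactttGTAAACAcgccgcgcct
CCNE2, chr4:41804255-41804284, plus strand: gcgcctggctgTGTTTACattctgcagcca
The CCAAT match of CDKN1C, which fell with bFGF, is shown in the same way and is the forward form.
CDKN1C, chr2:2022071-2022100, minus strand: ccccgcgccccgCCAATcggccctcgcgcc
In the window of CDKN1B, whose mRNA fell with bFGF, none of the motifs searched was found.

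Non-coding transcripts near the members were few. An antisense transcript of CCND2 that shares no exon base with it was at 1.18 to 2.00 CPM in control, 1.46 to 1.58 in OIM and 1.17 to 1.37 with bFGF. The 6 antisense transcripts annotated at CDKN2B reached an estimated count of at most 6.12 in any library. Of the 6179 circular RNAs in the table, 0 overlapped a member gene.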

How the data were processed

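RNA of 9 PVIC libraries was analysed from the deposited table of gene counts. The authors' table holds estimated counts that are not normalized, whole numbers in the 19535 gene rows and with decimals in some of the 9888 non-coding transcript rows. 19 columns without a name or value were not used. The study's methods name Cutadapt, STAR and a poly-A kit, whereas the submitters' processing notes name Trimmomatic, HISAT2, StringTie and Sscrofa11.1 and the labels a ribosomal RNA depletion kit. The counting program and its strand setting are not given in the sources used here.

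Groups came from the labels. Counts were filtered with filterByExpr, TMM-scaled and fitted with edgeR 4.0.16 in R 4.3.3 on 3 groups (6 residual degrees of freedom, 13662 genes, two-sided tests, BH adjustment over all of them). The standard error is the log2 fold change divided by the square root of F. The common biological coefficient of variation (BCV) of 0.0602 exceeded counting error except for low genes. Exon lengths were unions of RefSeq exons on Sscrofa11.1. The edgeR step was tested on simulated counts with a common dispersion and as many genes raised as lowered. Far fewer genes were changed there than were called in bFGF against OIM, so that setting was not tested.

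The members and lists were chosen with earlier results of these data known. All members are named, and from each list up to 3 called genes per direction in bFGF against OIM, and in OIM against control up to 2 of all lists together. Other genes named (RB1, RBL2, CDKN2D, MYC, MDM2, TAF8, INTS8 and the markers) were chosen after their values were seen. CDK6, CDKN2A, CDC25A and MCM5 were not analysed here, and the value of 1 gene the rule selects is not reported here. Alternatives were DESeq2 1.42.0, other scaling, filters and fold limits, fits on the groups compared, a replicate block and leaving out each library.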

Additional observations from a re-analysis of the deposited data

How the results depend on the processing

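Of the members' fold changes under the alternatives, 504 kept direction and side of the threshold, 4 changed sign, 1 became stronger and 1 weaker. Sign changed for CCNE1 in OIM against control without OIM replicate 2 (-0.092), for CDKN1B there without control replicate 2 (-0.012) or OIM replicate 3 (-0.020), and for CCND2 in bFGF against OIM with library totals alone (0.050). Over the libraries left out, the OIM against control values ran from -0.092 to 0.27 for CCNE1, from -0.020 to 0.10 for CDKN1B and from 0.10 to 0.65 for CCNE2. None of CCNE1, CDKN1B and CCND2 was called in the comparison named. Members called higher in OIM against control numbered 1 without OIM replicate 2, with a range of 1 to 3 over the libraries left out, 4 with no fold limit and 0 with a limit of 1 on the log2 scale, and 1 was called lower with no fold limit. In bFGF against control 1 was called lower with a limit of 1. The sources used here do not say whether libraries with 1 replicate number belong together. Their deviations from the group means correlated at -0.032 to 0.0035, and 0 of 18 correlated best with its own number. These correlations cannot show how the libraries were made. A replicate block changed none of the members' calls, with 2, 5 and 5 called higher and 0, 4 and 4 lower, and moved calls over all genes from 321 to 309, from 4939 to 4917 and from 5323 to 5285.

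Shares depend on the gene lengths. With counts not divided by length, CCND1 held 52.2%, 60.3% and 87.2% of the D-type sum in control, OIM and bFGF, CCND2 19.8%, 14.7% and 6.59%, and CCND3 27.99%, 25.0% and 6.20%. In the Cip/Kip sum CDKN1C then held 1.97% in control, CDKN1A, CDKN1B and CDKN1C 78.8%, 18.3% and 2.85% in OIM, and CDKN1A and CDKN1B 83.0% and 14.7% with bFGF. With the longest transcript as length, an alternative added after the data were seen, CCND1, CCND2 and CCND3 held 32.4%, 42.9% and 24.7% in control, CCND2 and CCND3 34.9% and 24.1% in OIM, and CCND1 and CCND3 73.2% and 7.42% with bFGF. The ratio of D-type to Cip/Kip sums, with alternatives also added after the data were seen, was 1.401, 2.03 and 7.03 in control, OIM and bFGF without division by length, and 1.11 in control and 4.11 with bFGF by the longest transcript. In bFGF CCND1 had the largest D-type share under both lengths and without them. CCNE1, CCNE2 and CDKN1C had the lowest CPM in each group and the largest standard errors, and the cause was not tested.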
